A study of Mus musculus with 10 samples.

Results

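The genes described here make, release, pump and read calcium signals. They are the 72 protein-coding genes, of 18464 genes in the deposited table, whose symbols belong to the families of inositol trisphosphate (IP3) receptors, ryanodine receptors, calcium pumps, phospholipases C, Stim and Orai proteins, calmodulins, CaM kinases, protein kinases C, S100 proteins and calcineurin. They were picked out by symbol, and 1 further match, Prkcz2, was left out because the table does not class it as protein coding. RNA came from naive Aldh1l1-NuTRAP mice, the strain of both groups, and from the ventral midbrain with its substantia nigra (SNpc) and ventral tegmental area (VTA). The NuTRAP allele tags ribosomes and nuclei, and in TRAP, or translating ribosome affinity purification, tagged ribosomes are isolated with the mRNA on them. The 5 astrocyte fraction libraries hold that purified RNA, and the 5 input libraries hold RNA of all cell types of the tissue before purification. Sex and age were not in the labels used here. The fraction is at most as cell-specific as the use of Aldh1l1 in this tissue, and RNA of other cell types was still measured in it.

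In astrocytes, calcium signals arise mainly from the endoplasmic reticulum. Receptors coupled to Gq proteins or tyrosine kinases activate a phospholipase C, which cleaves a membrane lipid into IP3 and diacylglycerol, and IP3 opens IP3 receptors in the store membrane. Pumps of the SERCA, PMCA and SPCA families move calcium back into the store, out of the cell and into the Golgi, Stim and Orai proteins refill the store from outside, and calmodulin, S100 proteins, protein kinase C, CaM kinases and calcineurin read the signal. In neurons the same families work with voltage-gated channels, and several isoforms, such as CaM kinase II alpha, are known for their part at synapses.

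The phospholipases C, the IP3 receptors, the Orai proteins and CaM kinase II each held both isoforms higher and isoforms lower in the astrocyte fraction than in input. All S100 genes were higher and all ryanodine receptors lower, and the SERCA, PMCA and calcineurin genes held no higher member. Of the 72 members, all tested, 20 (27.8%) were higher in the astrocyte fraction than in input, 40 (55.6%) were lower and 12 (16.7%) were not called (edgeR quasi-likelihood test, Benjamini-Hochberg adjusted p under 0.05). Of all 17672 genes tested, 33.1% were higher, 37.5% lower and 70.6% called in either direction. A log2 fold change is astrocyte fraction minus input, as fitted by edgeR. The error given with it is the standard error of the difference of mean log2 levels between the libraries, not that of the fitted value. The median log2 fold change was -0.68 over the members, -0.06 over all tested genes and -0.07 over tested protein-coding genes. The higher members include 7 of 7 S100 genes, 5 of 12 phospholipases C and 1 IP3 receptor. The lower members include 3 of 3 ryanodine receptors and 12 of 14 genes with a Camk symbol. Without the S100 genes, 13 of 65 members were higher, 40 were lower and the median was -0.86. At 2-fold or more, 17 members were higher and 28 lower, against 16.1% and 24.3% of all tested genes. The 5 libraries of each group did not overlap for 56 members, with 19 above and 37 below the input, against 27.2% above and 31.1% below for all genes.

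**Figure D1:**
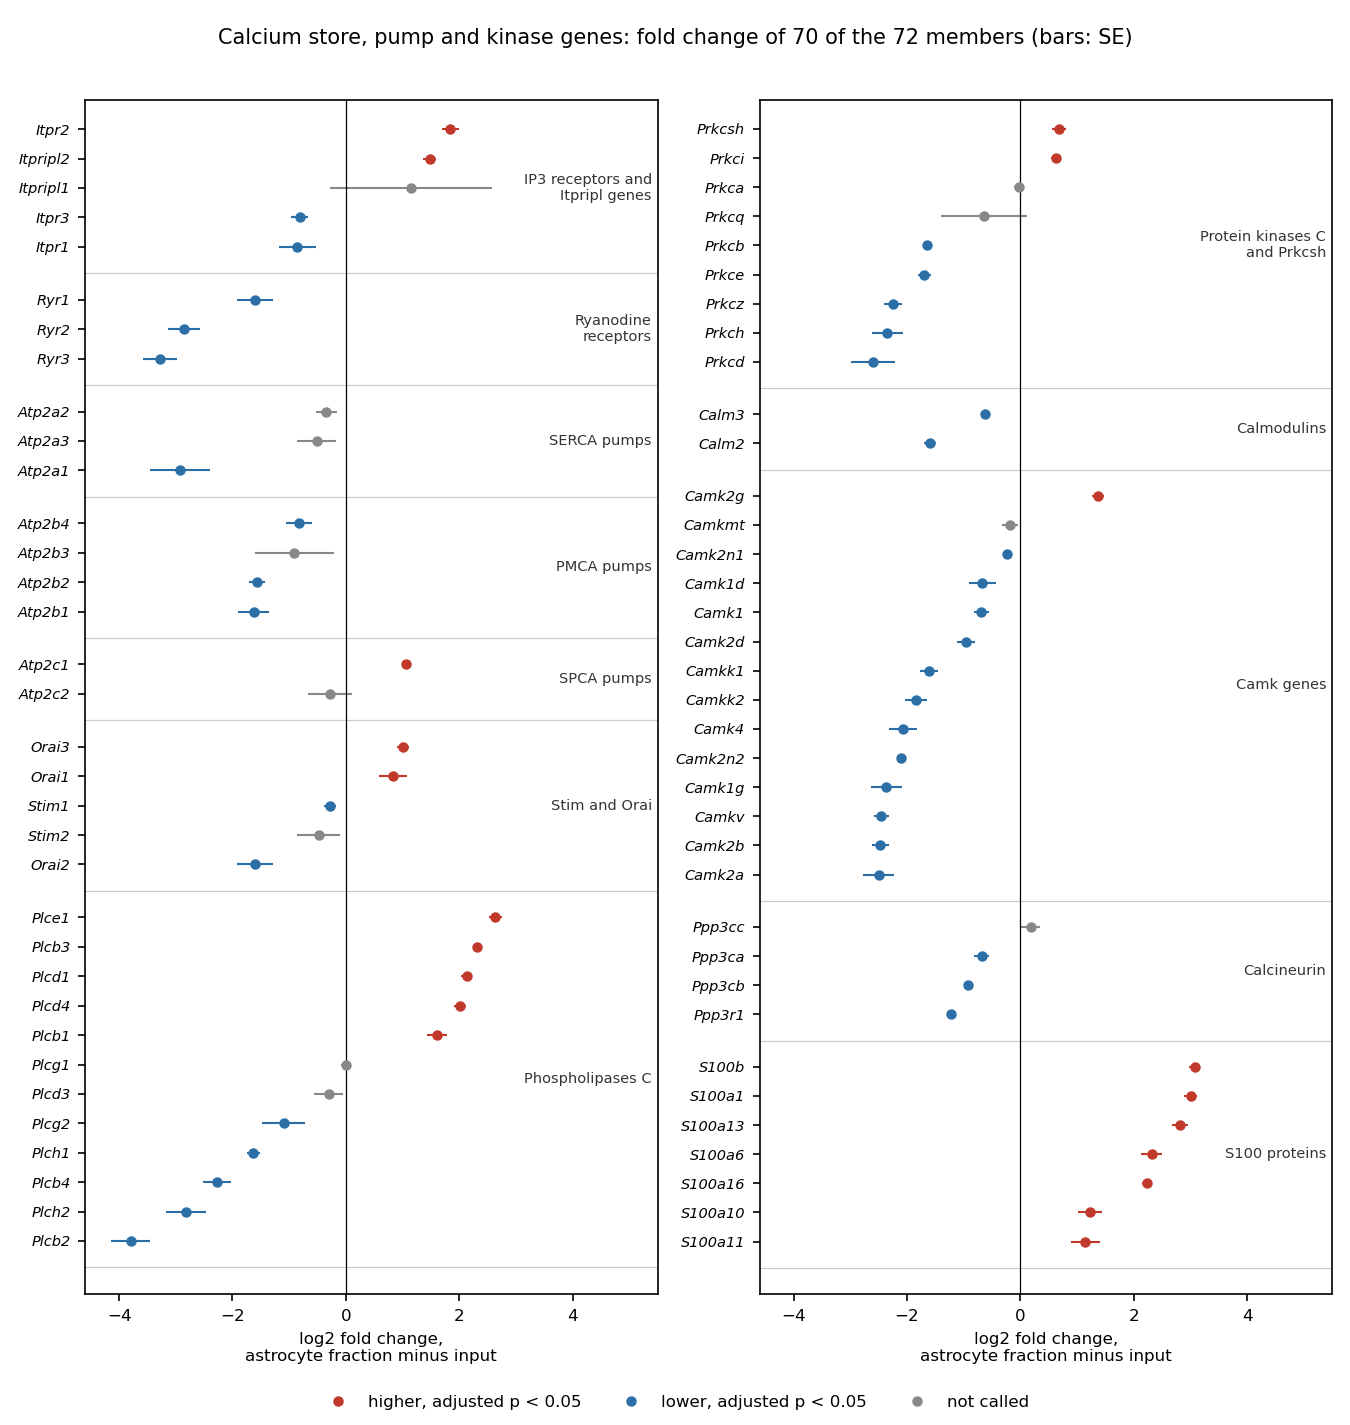
The fitted log2 fold change of 70 of the 72 members, astrocyte fraction minus input, grouped by role. Bars are 1 standard error of the difference of mean log2 levels, not of the fitted value. Red marks members higher and blue members lower at an adjusted p under 0.05, and grey those not called. All 7 S100 genes lie to the right of 0 and all 3 ryanodine receptors to the left. The phospholipases C spread from -3.79, for Plcb2 with 1 to 3 counts per astrocyte fraction library, to 2.64.

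Libraries carry the numbers 88, 92, 976, 981 and 982 in their titles, each shared by 1 astrocyte fraction and 1 input library, and values below are listed in that order. The labels do not say that the numbers are separate animals, so p-values measure the spread between these libraries. The total of expected counts was 3845554 in astrocyte fraction library 92, 24479136 to 26924406 in the other astrocyte fraction libraries and 21812193 to 30878894 in the input. Without the shallow library, 20 members were higher, 39 lower and 13 not called. All 12 astrocyte markers were higher in the astrocyte fraction, with summed levels of 21871 to 31950 CPM (counts scaled to a common library size) against 3560 to 3920 CPM in the input. All 12 pan-neuronal, 10 oligodendrocyte and 10 microglia markers were lower, as were 6 of 7 mural cell markers, and the remaining mural marker was higher. Of 9 endothelial markers, 5 were not called and 4 were lower, and the median of their ratios was 84.9% of input. The summed pan-neuronal markers were at 1656 to 2127 CPM in the astrocyte fraction against 7047 to 8189 CPM in the input, so some neuronal RNA was still measured in the fraction, with a median log2 fold change of -2.33 over the 12. Choroid plexus RNA was uneven: the marker Ttr had 2.77, 2.93, 11036, 11.6 and 2312 CPM in the astrocyte fraction, against 1.40, 0.334, 2966, 2.70 and 604 CPM in the input, so numbers 976 and 982 stand apart in both groups. In bulk RNA, fewer cells of a type and less RNA per cell cannot be told apart.

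The phospholipases C start the pathway, and this family divided evenly, with 5 members higher, 5 lower and 2 not called. Per kilobase of exon, Plcb1, Plcd4, Plcb3, Plcd1 and Plce1 led the family in the astrocyte fraction, and Plcb4 led it in the input. Plce1, which encodes an enzyme controlled by small G proteins, had 197, 202, 148, 218 and 178 CPM in the astrocyte fraction, against 29.8, 33.01, 28.6, 33.1 and 26.6 CPM in the input. Every astrocyte fraction library lay above every input library. Its log2 fold change of 2.64 ± 0.11 (adjusted p = 4.17e-10) was the highest among the phospholipases C. Plcb3, one of the beta enzymes that Gq proteins activate, had 105, 101, 99.4, 105 and 117 CPM in the astrocyte fraction, against 22.2, 20.2, 22.2, 19.9 and 22.1 CPM in the input. Its groups did not overlap either, and its log2 fold change was 2.31 ± 0.05 (adjusted p = 6.78e-11). Plcb1, the other Gq-activated enzyme among the higher members, averaged 219 ± 40.7 CPM in the astrocyte fraction and 71.3 ± 13.1 CPM in the input (SD, n = 5 each), and its log2 fold change was 1.61 ± 0.18 (adjusted p = 1.02e-06).

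The delta enzymes, which respond to calcium itself, were also higher. Plcd4 had 148, 129, 106, 142 and 134 CPM in the astrocyte fraction, against 31.8, 38.7, 29.6, 29.9 and 32.9 CPM in the input. The 2 groups were well apart, with a log2 fold change of 2.01 ± 0.11 (adjusted p = 2.85e-09). About 29.8% of the exon bases of Plcd4 are also annotated to Zfp142 on the opposite strand, and Zfp142 itself was not called (-0.23). Plcd1 had 42.96, 38.4, 43.1, 38.4 and 45.2 CPM in the astrocyte fraction, against 9.29, 9.15, 11.7, 8.69 and 8.46 CPM in the input. All its astrocyte fraction libraries exceeded all input libraries, and its log2 fold change was 2.13 ± 0.09 (adjusted p = 2.05e-09). The remaining delta enzyme, Plcd3, was not called (-0.30).

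Other isoforms were lower. Plcb4, a beta enzyme known from cerebellar and thalamic neurons, had 40.7, 78.4, 41.8, 40.6 and 43.1 CPM in the astrocyte fraction, against 183, 343, 176, 229 and 223 CPM in the input. Number 92 was the highest library of both groups, the groups did not overlap, and the log2 fold change was -2.27 ± 0.25 (adjusted p = 4.59e-06). Plch2, one of the eta enzymes of the nervous system, had 6.08, 15.8, 12.7, 7.65 and 14.7 CPM in the astrocyte fraction, against 45.2, 84.5, 105, 59.05 and 97.3 CPM in the input. Its input values varied more than 2-fold but stayed above every astrocyte fraction value, with a log2 fold change of -2.82 ± 0.35 (adjusted p = 1.54e-05), and Plch1 was lower as well (-1.63). Plcb2, an enzyme of blood and immune cells, had 3, 1, 1, 1 and 1 counts in the astrocyte fraction, against 70, 55, 43, 58 and 73 counts in the input. These few counts give a fitted log2 fold change of -3.79 ± 0.34 (adjusted p = 3.42e-07) that depends on the prior count. Plcb2 passed the count limits only through the input, where it is high, so its lower call is a description only.

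The gamma enzymes are switched on by tyrosine kinases. Plcg1 had 90.4, 74.8, 78.6, 81.97 and 95.2 CPM in the astrocyte fraction, against 85.8, 95.7, 77.6, 88.9 and 73.5 CPM in the input. The groups overlapped fully, with a log2 fold change of 0.00 ± 0.09 (adjusted p = 0.985). With scaling to total counts, Plcg1 turned to -0.28 (adjusted p = 0.0125), a scaling that moved the median of all genes from -0.06 to -0.34. Part of its exon sequence, 6.68%, is shared with Zhx3 on the opposite strand, which was higher in the fraction. Plcg2, known from B cells and microglia, had 3.59, 0.880, 2.43, 2.52 and 4.11 CPM in the astrocyte fraction, against 6.24, 5.93, 5.42, 7.07 and 6.37 CPM in the input. Every input library lay above the astrocyte fraction libraries, of which number 92 rests on 3 counts, and the log2 fold change was -1.09 ± 0.38 (adjusted p = 0.00224). Microglia markers, 10 of 10 lower and summing to 56.1 to 71.8 CPM in the astrocyte fraction against 405.5 to 555 CPM in the input, moved with Plcb2 and Plcg2. The microglia markers C1qc and Aif1 were at 0 in astrocyte fraction library 92, and the part of these cells in the values of Plcb2 and Plcg2 was not tested.

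Among the IP3 receptors, through which astrocyte stores release calcium, only the type 2 receptor was higher. Itpr2, the isoform best known in astrocytes, had 81.7, 89.8, 55.2, 88.4 and 76.6 CPM in the astrocyte fraction, against 22.7, 24.6, 19.5, 23.2 and 18.5 CPM in the input. The lowest astrocyte fraction library, 976, was still more than 2-fold above the highest input library, and the log2 fold change was 1.84 ± 0.15 (adjusted p = 5.8e-08), a 3.59-fold enrichment. Itpr1, the main neuronal isoform, had 69.2, 111, 221, 70.04 and 122 CPM in the astrocyte fraction, against 195, 278, 185, 221 and 196 CPM in the input. Library 976 of the astrocyte fraction overlapped the input, the other 4 lay below it, and the log2 fold change was -0.85 ± 0.33 (adjusted p = 0.0283). That call is fragile: leaving out any of 6 libraries (astrocyte fraction 88, 92, 981 or 982, input 92 or 981) ended it, with adjusted p between 0.0507 and 0.0677. Without the numbers 976 and 982 the log2 fold change of Itpr1 was -1.39 (adjusted p = 0.000474). Itpr3 was low in both groups, averaging 1.72 ± 0.291 CPM in the astrocyte fraction and 3.01 ± 0.512 CPM in the input (SD, n = 5 each), with a log2 fold change of -0.81 ± 0.15 (adjusted p = 0.00372); without the numbers 976 and 982 its adjusted p was 0.0578.

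Per kilobase of exon, Itpr2 made up 46.7 ± 14.8% of IP3 receptor transcripts in the astrocyte fraction and 10.9 ± 1.02% in the input (SD, n = 5 each). Itpr1 made up 51.7 ± 15.1% in the astrocyte fraction and 86.6 ± 1.20% in the input. The wide spread in the fraction comes with library 976, where Itpr2 had its lowest share, 23.4%, against 9.69 to 12.2% in the input. Of the genes named for their likeness to an IP3 receptor-interacting protein, Itpripl2 was higher, averaging 16.8 ± 2.02 CPM in the astrocyte fraction and 5.91 ± 0.762 CPM in the input (SD, n = 5 each) with a log2 fold change of 1.48 ± 0.11 (adjusted p = 3.95e-07). Itpripl1 was not called (1.15) and had 0.408, 0, 23.2, 0.898 and 3.98 CPM in the astrocyte fraction, against 1.43, 1.31, 5.60, 1.83 and 3.22 CPM in the input. Its level in library 976 stood far above the rest, and without that astrocyte fraction library its log2 fold change turned to -0.71, not called either. In library 92 of the astrocyte fraction no count was found, which allows up to 0.880 CPM.

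Ryanodine receptors, the other store release channels and known mainly from muscle and neurons, were all lower. Ryr3 had 4.53, 9.68, 5.74, 3.46 and 6.87 CPM in the astrocyte fraction, against 44.2, 83.4, 50.2, 55.6 and 44.5 CPM in the input. The highest astrocyte fraction library, 92, lay below the lowest input library, and the log2 fold change of -3.28 ± 0.30 (adjusted p = 3.45e-07) was the most negative after that of Plcb2. Ryr2, the heart and brain form, fell by 2.85 on the log2 scale (adjusted p = 1.07e-07), and Ryr1, the skeletal muscle form, fell by 1.61 (adjusted p = 0.000163). Summed over the 3, ryanodine receptors were at 11.1 to 19.0 CPM in the astrocyte fraction and 102 to 137 CPM in the input. The IP3 receptors summed to 152 to 277 CPM in the astrocyte fraction and 207 to 305 CPM in the input, so their sums overlapped while those of the ryanodine receptors did not. The log2 fold changes of Ryr2, Ryr3, Atp2a1, Plcb2 and Plch2 all lay below -2.62, the lowest of the 12 pan-neuronal markers. That of Plcb2 rests on 1 to 3 counts per astrocyte fraction library.

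**Figure D2:**
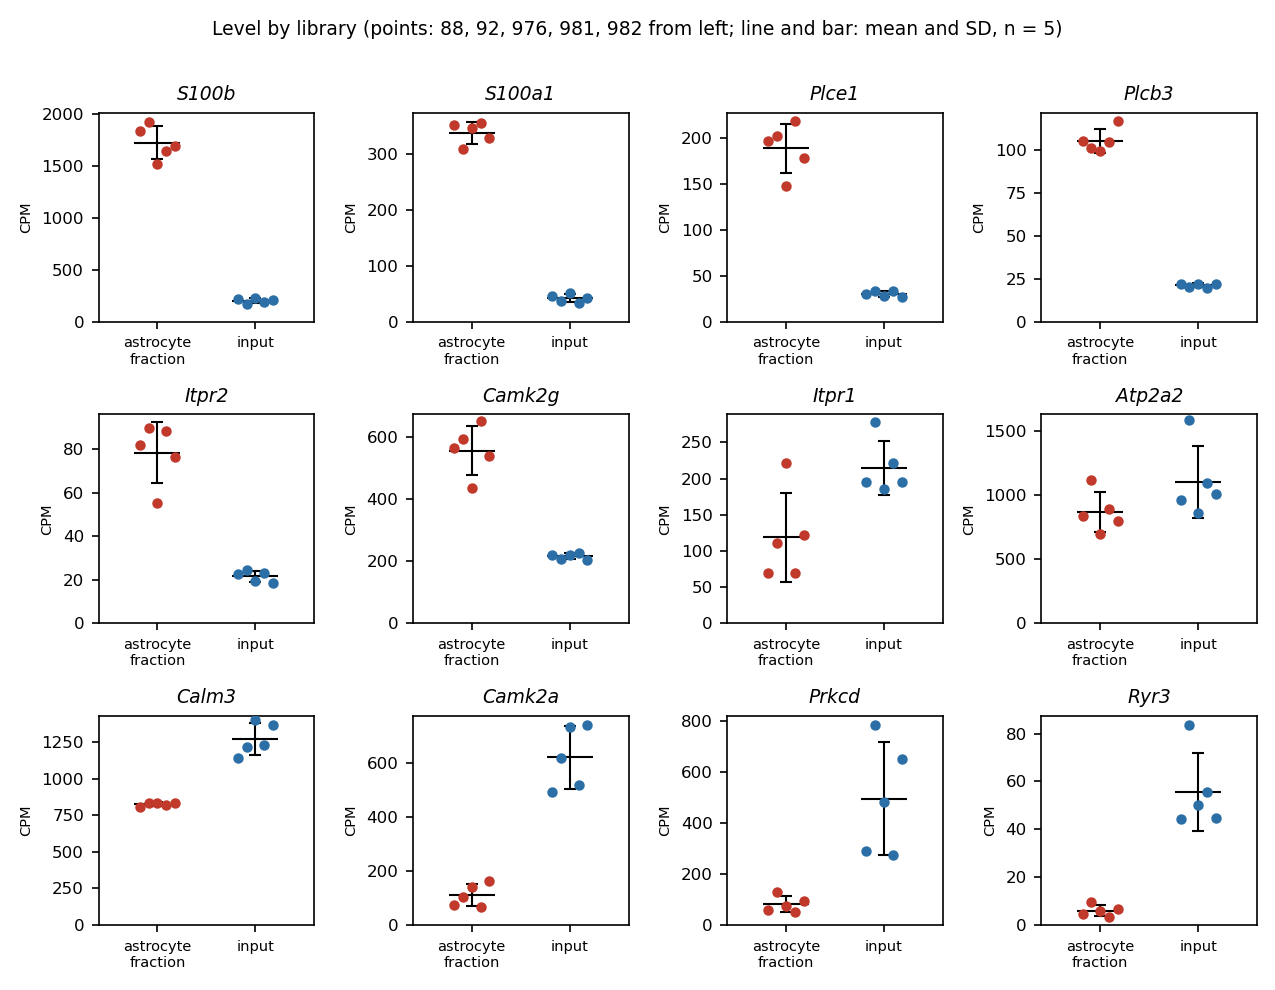
Levels of 12 members in CPM on linear axes, 1 panel each with its own scale, astrocyte fraction left of input; points are libraries 88, 92, 976, 981 and 982 from left to right, and lines with bars are the mean and SD of 5. The groups are apart for 10 of the 12 and overlap for Itpr1, where the astrocyte fraction library 976 is at 221 CPM, and for Atp2a2.

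Of the pumps that refill the store, SERCA2 dominated both groups. Atp2a2, the housekeeping SERCA gene, had 835, 1117, 698, 892 and 801 CPM in the astrocyte fraction, against 963, 1585, 863, 1091 and 1007 CPM in the input. It was lower in the astrocyte fraction than in input within each of the 5 numbers, but the groups overlapped and it was not called, with a log2 fold change of -0.34 ± 0.19 (adjusted p = 0.0797). With the title number as a block, which compares libraries within a number, the log2 fold change was -0.33 and the adjusted p 0.000673. Leaving out astrocyte fraction library 92 or input library 976 gave adjusted p of 0.0297 and 0.0412, and the filter at a mean of 5 CPM gave -0.43 (adjusted p = 0.0319). Atp2a2 made up 98.5 ± 0.830% of SERCA transcripts per kilobase in the astrocyte fraction and 97.1 ± 0.679% in the input (SD, n = 5 each).

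The other SERCA genes were scarce. Atp2a1, the fast muscle form, had 0.898, 3.52, 1.08, 0.556 and 1.81 CPM in the astrocyte fraction, against 5.06, 15.1, 10.7, 6.65 and 14.8 CPM in the input. Each astrocyte fraction library was below each input library, with a log2 fold change of -2.92 ± 0.53 (adjusted p = 8.84e-05), though 21.9% of its exon bases are shared with Rabep2 on the opposite strand, which was also lower (-0.51). Atp2a3 was not called (-0.52); without astrocyte fraction library 976 it was -0.81 (adjusted p = 0.00679).

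The plasma membrane pumps (PMCA), which expel calcium from the cell, were lower in 3 of 4 cases. Atp2b2, which had the highest level per kilobase among them, had 131, 172, 189, 147 and 185 CPM in the astrocyte fraction, against 429.9, 609, 473, 418 and 504 CPM in the input. The lowest input library was more than 2-fold above the highest astrocyte fraction library, and the log2 fold change was -1.56 ± 0.14 (adjusted p = 1.68e-07). Atp2b1, the widely expressed form, had 102, 218, 125, 104 and 128 CPM in the astrocyte fraction, against 303, 588, 398, 318 and 466 CPM in the input. Number 92 was highest in both groups, the groups were apart, and the log2 fold change was -1.63 ± 0.27 (adjusted p = 0.000128). Atp2b4 fell by 0.83 on the log2 scale (adjusted p = 0.00237).

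Atp2b3 was the exception in this family. It had 14.1, 14.1, 165, 15.4 and 41.01 CPM in the astrocyte fraction, against 84.1, 102, 109, 102 and 85.2 CPM in the input. The astrocyte fraction library 976 exceeded every input library while the other 4 lay below them all, and the gene was not called (-0.91, adjusted p = 0.277). Without that library the log2 fold change was -2.05 (adjusted p = 0.000387), and with all libraries limma on the authors' deposited log2 values gave a lower call at -1.74 (adjusted p = 0.0336).

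The Golgi pump Atp2c1, which also carries manganese, was the one calcium pump gene called higher. It had 274, 297, 296, 300.3 and 267 CPM in the astrocyte fraction, against 131, 149.8, 139, 134 and 131 CPM in the input. The groups were far apart relative to their spread, and the log2 fold change was 1.07 ± 0.05 (adjusted p = 1.14e-08), a 2.09-fold difference. Aste1 on the opposite strand shares 19.0% of its exon bases and was not called (-0.05). Its relative Atp2c2 stayed below 1 CPM in every library and was not called (-0.28).

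Store-operated entry uses Stim proteins as store sensors and Orai proteins as pores, and the Orai isoforms differed in direction. Orai3 had 40.1, 29.6, 35.7, 35.9 and 36.2 CPM in the astrocyte fraction, against 16.99, 16.9, 18.1, 15.5 and 21.03 CPM in the input. All astrocyte fraction libraries were above all input libraries, with a log2 fold change of 1.01 ± 0.10 (adjusted p = 2.32e-06). Orai1, the pore of immune cells, was higher within each of the 5 numbers though the groups overlapped, averaging 16.4 ± 5.52 CPM in the astrocyte fraction and 9.27 ± 1.88 CPM in the input (SD, n = 5 each), with a log2 fold change of 0.83 ± 0.24 (adjusted p = 0.00419). Orai2, which is abundant in brain, had 10.3, 18.5, 31.3, 12.6 and 21.8 CPM in the astrocyte fraction, against 46.2, 49.8, 78.9, 48.7 and 64.1 CPM in the input. Its groups did not overlap, number 976 was highest in both, and the log2 fold change was -1.60 ± 0.32 (adjusted p = 0.000469). Orai3 made up 62.5 ± 8.71% of Orai transcripts per kilobase in the astrocyte fraction and 38.3 ± 3.78% in the input, while Orai2 made up 11.4 ± 3.76% in the astrocyte fraction and 43.2 ± 3.46% in the input (SD, n = 5 each).

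The differences of the sensors were small. Stim1 averaged 68.2 ± 10.6 CPM in the astrocyte fraction and 83.6 ± 6.06 CPM in the input (SD, n = 5 each), with a log2 fold change of -0.29 ± 0.11 (adjusted p = 0.0213). Its call was lost without astrocyte fraction library 88, 92 or 981 or input library 88, with adjusted p between 0.0514 and 0.0628. Stim2 had 19.9, 18.2, 70.7, 19.8 and 29.1 CPM in the astrocyte fraction, against 43.0, 38.6, 56.1, 38.5 and 47.98 CPM in the input. Library 976 of the astrocyte fraction was the highest of all 10, and the gene was not called (-0.48). A block on the title number gave a lower call at -0.68 (adjusted p = 0.0214). It was also called lower without astrocyte fraction library 976, at -0.94 (adjusted p = 0.00021).

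Calmodulin, the main cytosolic calcium sensor, is encoded by several genes that give the same protein. Calm2 and Calm3 were lower by unlike amounts. Calm3 had 807, 831, 837, 822 and 835 CPM in the astrocyte fraction, against 1142, 1214, 1399, 1232 and 1369 CPM in the input. The astrocyte fraction libraries lay within 30 CPM of each other and below all input libraries, with a log2 fold change of -0.62 ± 0.06 (adjusted p = 5.04e-06). Calm2 had 202, 268, 244, 211 and 207 CPM in the astrocyte fraction, against 608, 648, 761, 639 and 763 CPM in the input. Its difference was larger, the groups did not overlap, and its log2 fold change was -1.60 ± 0.10 (adjusted p = 1.49e-08). The calmodulin genes share coding sequence and have copies elsewhere in the genome, so how reads were assigned between them is uncertain. Even so, Calm3 stayed among the most abundant members: per kilobase, it ranked 3 of 72 in the astrocyte fraction (341 ± 5.04 CPM per kb) and 1 in the input (525 ± 44.9 CPM per kb).

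CaM kinase II had a different isoform make-up in the astrocyte fraction than in input. Camk2g, the gamma isoform, had 564, 594, 434, 649.7 and 537 CPM in the astrocyte fraction, against 219, 208, 219, 227 and 202 CPM in the input. Every astrocyte fraction library lay above every input library, with a log2 fold change of 1.37 ± 0.10 (adjusted p = 4.57e-08), and it was the one gene with a Camk symbol called higher. Camk2a, the alpha isoform of excitatory synapses, had 75.96, 104, 139.5, 68.2 and 162 CPM in the astrocyte fraction, against 492, 618, 733, 520.1 and 741 CPM in the input. The lowest input library was about 3-fold above the highest astrocyte fraction library, and the log2 fold change was -2.50 ± 0.27 (adjusted p = 4.55e-06). Camk2b, the other main neuronal isoform, averaged 102 ± 19.6 CPM in the astrocyte fraction and 566 ± 64.9 CPM in the input (SD, n = 5 each) (-2.47, adjusted p = 3.82e-09), and Camk2d fell by 0.96 on the log2 scale (adjusted p = 4.33e-05). Camk2g made up 74.6 ± 6.89% of CaM kinase II transcripts per kilobase in the astrocyte fraction and 18.4 ± 2.66% in the input. Camk2a made up 12.8 ± 4.96% in the astrocyte fraction and 44.6 ± 3.37% in the input (SD, n = 5 each).

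Of the CaM kinase II inhibitors, Camk2n1 had 826, 822, 653, 716 and 775 CPM in the astrocyte fraction, against 853, 876, 859, 874 and 975 CPM in the input. The groups did not touch but were close, with a log2 fold change of -0.23 ± 0.07 (adjusted p = 0.0223). Without astrocyte fraction library 976 it was -0.11 (adjusted p = 0.179), and without astrocyte fraction library 981 or input library 982 its adjusted p was 0.0633 and 0.0674. The gene is nonetheless abundant, ranking 5 of 72 per kilobase in the astrocyte fraction and 4 in the input. Camk2n2 was far lower, averaging 47.7 ± 3.90 CPM in the astrocyte fraction and 204 ± 10.2 CPM in the input (SD, n = 5 each), and its log2 fold change was -2.10 ± 0.06 (adjusted p = 1.22e-10).

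The other CaM kinases were lower in 6 of 6 cases, with a median log2 fold change of -1.72. The kinases Camkk1 (-1.60) and Camkk2 (-1.84), which activate the CaM kinases I and IV, were both lower. Their targets Camk1 (-0.69), Camk1d (-0.67), Camk1g (-2.36) and the nuclear kinase Camk4 (-2.06) were lower too. Camk1d was the only one of the 6 whose groups overlapped, and its call was lost without both libraries of number 976 (adjusted p = 0.0587). Camkv, a kinase-like protein of synaptic vesicles, was lower (-2.46), and Camkmt, which encodes an enzyme that methylates calmodulin, was not called (-0.18).

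Protein kinase C enzymes respond to diacylglycerol, and the conventional ones also to calcium. Prkcd, an isoform that needs diacylglycerol but no calcium, had 60.8, 130.3, 76.2, 51.01 and 95.1 CPM in the astrocyte fraction, against 291, 783, 481, 273 and 650.2 CPM in the input. Both groups varied more than 2-fold, with 92 and 982 highest in each, yet no astrocyte fraction library reached an input library, and the log2 fold change was -2.60 ± 0.39 (adjusted p = 0.000125).

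Of the conventional isoforms, Prkca averaged 72.6 ± 3.82 CPM in the astrocyte fraction and 73.3 ± 8.99 CPM in the input (SD, n = 5 each), with a log2 fold change of -0.02 ± 0.09 (adjusted p = 0.878), and was called lower only with scaling to total counts (-0.30, adjusted p = 0.00701). Prkcb averaged 55.2 ± 5.59 CPM in the astrocyte fraction and 173 ± 6.88 CPM in the input (SD, n = 5 each), a log2 fold change of -1.65 ± 0.07 (adjusted p = 1.33e-09). Of the other isoforms that need no calcium, Prkce (-1.70) and Prkch (-2.35) were lower. Prkcq, known from T cells, was not called and had 2.41, 6.46, 42.8, 3.72 and 11.8 CPM in the astrocyte fraction, against 17.9, 16.3, 31.95, 13.3 and 29.2 CPM in the input. Library 976 was highest in both groups, and without the astrocyte fraction library 976 the log2 fold change of Prkcq was -1.75 (adjusted p = 0.00859).

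The atypical isoforms, which need neither calcium nor diacylglycerol, went opposite ways. Prkci was higher, averaging 68.98 ± 5.27 CPM in the astrocyte fraction and 44.7 ± 4.02 CPM in the input (SD, n = 5 each), with a log2 fold change of 0.63 ± 0.08 (adjusted p = 1.83e-05). Prkcz was lower, averaging 37.3 ± 8.84 CPM in the astrocyte fraction and 177 ± 15.7 CPM in the input (SD, n = 5 each), with a log2 fold change of -2.24 ± 0.16 (adjusted p = 2.69e-08). Prkcsh, matched by its symbol, is no kinase but the beta subunit of glucosidase II, which trims glycoproteins in the endoplasmic reticulum. It had 157, 117, 189, 147 and 162 CPM in the astrocyte fraction, against 95.9, 98.03, 101, 96.6 and 90.4 CPM in the input. All astrocyte fraction libraries were above the input, with a log2 fold change of 0.68 ± 0.12 (adjusted p = 6.3e-05).

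Calcineurin, the calmodulin-activated phosphatase, was lower in its main subunits. Ppp3r1, the regulatory subunit, had 129, 141, 137, 128 and 130.4 CPM in the astrocyte fraction, against 299.9, 295, 329.9, 301 and 326 CPM in the input. The lowest input library was more than 2-fold above the highest astrocyte fraction library, with a log2 fold change of -1.22 ± 0.04 (adjusted p = 2.1e-09), and 14.3% of its exon bases are shared with Wdr92 on the same strand, which was not called (0.32). The catalytic subunits Ppp3ca (-0.68, adjusted p = 0.000146) and Ppp3cb (-0.92, adjusted p = 1.52e-07) were lower. The remaining catalytic gene, Ppp3cc, averaged 17.6 ± 3.61 CPM in the astrocyte fraction and 15.7 ± 1.94 CPM in the input (SD, n = 5 each) and was not called (0.18).

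**Figure D3:**
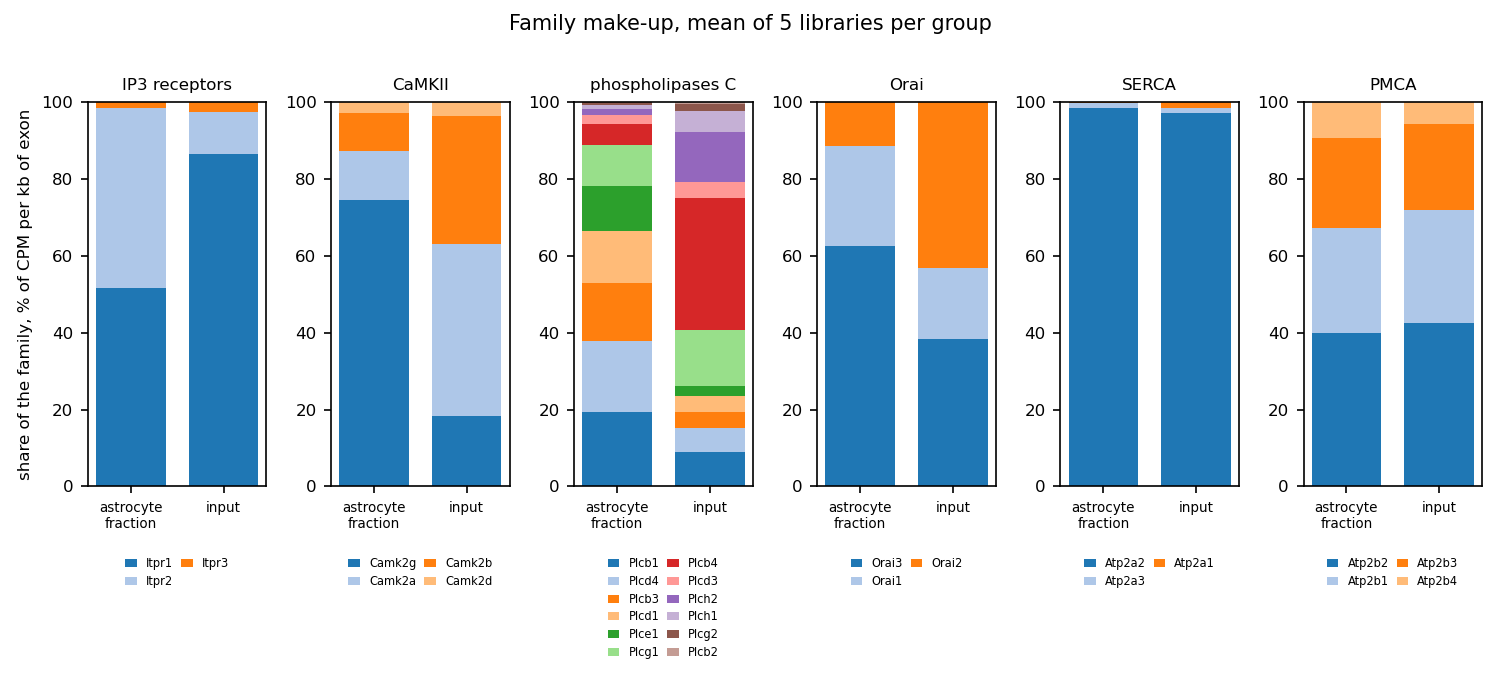
Share of each gene in its family's summed CPM per kilobase of exon, in percent, for 6 families; each pair of bars gives the mean of 5 astrocyte fraction libraries at left and of 5 input libraries at right, without error bars. Camk2g takes 74.6% of CaM kinase II in the astrocyte fraction and 18.4% in the input, and Plcb4 takes 5.42% of phospholipases C in the astrocyte fraction and 34.3% in the input.

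The S100 proteins, small calcium-binding proteins of which S100B is a textbook astrocyte product, were the one family in which every measured gene was higher. S100b (ENSMUSG00000033208, chromosome 10, 76253853 to 76261159, mm10) had 1829, 1921, 1514, 1640.4 and 1691 CPM in the astrocyte fraction, against 215, 172, 228, 194 and 209.8 CPM in the input. The lowest astrocyte fraction library was more than 6-fold above the highest input library, and the log2 fold change was 3.08 ± 0.09 (adjusted p = 7.43e-11), an 8.44-fold enrichment. Per kilobase of exon, S100b ranked first of the 72 members in the astrocyte fraction (1159 ± 108 CPM per kb) and 7 in the input (137 ± 14.6 CPM per kb). S100a1 (ENSMUSG00000044080, chromosome 3, 90511034 to 90514392, mm10), best known for its action on SERCA and ryanodine receptors in muscle, had 352, 308, 346, 354 and 328 CPM in the astrocyte fraction, against 45.6, 36.7, 51.2, 33.6 and 42.2 CPM in the input. Its groups were far apart too, with a log2 fold change of 3.01 ± 0.11 (adjusted p = 1.66e-10), and it ranked 2 per kilobase in the astrocyte fraction and 13 in the input.

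S100a13 (ENSMUSG00000042312, chromosome 3, 90514435 to 90524581, mm10), which takes part in the release of FGF1, averaged 71.4 ± 12.2 CPM in the astrocyte fraction and 10.1 ± 1.14 CPM in the input (SD, n = 5 each), with a log2 fold change of 2.82 ± 0.14 (adjusted p = 9.03e-10). S100a16 averaged 263 ± 27.98 CPM in the astrocyte fraction and 55.9 ± 5.48 CPM in the input (SD, n = 5 each) (2.23), and S100a6, also called calcyclin, averaged 17.9 ± 3.07 CPM in the astrocyte fraction and 3.57 ± 0.737 CPM in the input (SD, n = 5 each) (2.32). S100a10, a partner of annexin A2 that has lost calcium binding (1.23), and S100a11 (1.15) were nearer to a 2-fold difference. For each of the 7 genes, all 5 astrocyte fraction libraries lay above all 5 input libraries. S100b, S100a1 and S100a13 reached the range of the 12 astrocyte markers, whose log2 fold changes began at 2.65, and the other 4 were below it.

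Of the 7 S100 genes, 6 lie on chromosome 3 and S100b lies on chromosome 10. S100a1 is transcribed from the minus strand and S100a13 from the plus strand, and their starts in the table are 43 bases apart. The sequence between them is shown because both genes were strongly enriched and share it, and the window of S100b is shown because it led the members. Both are RefSeq windows (GRCm38.p6) from 250 bases before to 50 after the start, read on the plus strand.
S100a13, chr3:90514185-90514484, capitals marking the 42 bases between the S100a1 and S100a13 starts: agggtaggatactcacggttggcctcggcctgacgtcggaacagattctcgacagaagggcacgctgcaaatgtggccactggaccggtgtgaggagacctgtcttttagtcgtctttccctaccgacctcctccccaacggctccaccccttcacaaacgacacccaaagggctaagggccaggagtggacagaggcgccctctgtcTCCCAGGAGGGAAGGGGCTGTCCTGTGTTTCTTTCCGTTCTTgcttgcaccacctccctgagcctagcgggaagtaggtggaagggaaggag
S100b, chr10:76253586-76253885, capitals marking the last 50 bases, from the RefSeq start: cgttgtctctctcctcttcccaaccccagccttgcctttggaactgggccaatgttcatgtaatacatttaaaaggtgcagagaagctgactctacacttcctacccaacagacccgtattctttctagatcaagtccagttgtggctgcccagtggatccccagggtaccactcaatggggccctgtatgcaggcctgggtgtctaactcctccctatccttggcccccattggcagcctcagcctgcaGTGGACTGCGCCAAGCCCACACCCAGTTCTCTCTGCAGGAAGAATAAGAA
The S100a1 and S100a13 windows share 204 bases. The RefSeq start of the S100a1 window lies inside the gene, at an offset of -62 bases from the start in the table. The capitals of the S100a13 window use the starts in the table. The 2 printed windows and that of S100a1 were searched on both strands for the motifs listed next, and none held any. Among the windows of the other S100 genes, 1 of S100a16 (chr3:90540896-90541195) held the SOX core. The SOX core ACAAT is present in 30.8% of 32544 mouse promoter windows of the same length. The letters of the basal promoter box, TATAAA, are present in 13.6% of those windows. The cyclic AMP response element, written TGACGTCA, is present in 1.8% of them, and the NFI palindrome in 0.0369%. Such letters are a description of these windows and say nothing of binding.

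The ratio of 2 relatives within a library does not depend on how libraries are scaled. Of 23 such ratios, 13 differed between the astrocyte fraction and input (exact two-sided permutation test, p = 0.00794, the smallest that 5 against 5 libraries can give, adjusted p = 0.014). All 13 favoured the first-named gene in the astrocyte fraction, but pairs and their order were set with earlier results of these data known. That shared direction and the count of called ratios are therefore no results in themselves, and the p-values describe pairs that were not chosen blind. The ratios also rest on the same counts as the calls above. In the permutation test 15 ratios had an unadjusted p under 0.05. With the exact sign-flip test on differences within a title number, whose smallest p is 0.0625, 0 of 23 could be called. Camk2g over Camk2b had a mean log2 ratio of 2.45 ± 0.47 in the astrocyte fraction and -1.39 ± 0.21 in the input (SD, n = 5 each), a difference of 3.83. Itpr2 over Itpr1 stood at -0.48 ± 0.94 in the astrocyte fraction and -3.27 ± 0.15 in the input, so Itpr1 still gave more counts than Itpr2 in the fraction on average. Orai1 over Orai2 differed by 2.41 and S100b over S100a10 by 1.93. Smaller differences were measured for Prkca over Prkcb (1.64), Camk2d over Camk2a (1.6), Atp2c1 over Atp2a2 (1.39), Plcg1 over Plcg2 (1.17) and Calm3 over Calm2 (0.98). Ppp3cc over Ppp3ca (0.81) and Plcb3 over Plcb1 (0.68) completed the 11 called ratios that are given here.

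The other 10 ratios were not called, and among them were pairs that fell together. Ryr3 over Ryr2 differed by -0.21 (exact permutation p = 0.579), Camkk2 over Camkk1 by -0.27 (p = 0.175) and Atp2b1 over Atp2b2 by -0.06 (p = 0.794). Plcd4 over Plcb1 (0.39, adjusted p = 0.0608) and Prkcd over Prkce (-0.84, adjusted p = 0.0522) were close to the threshold in the exact permutation test.

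**Figure D4:**
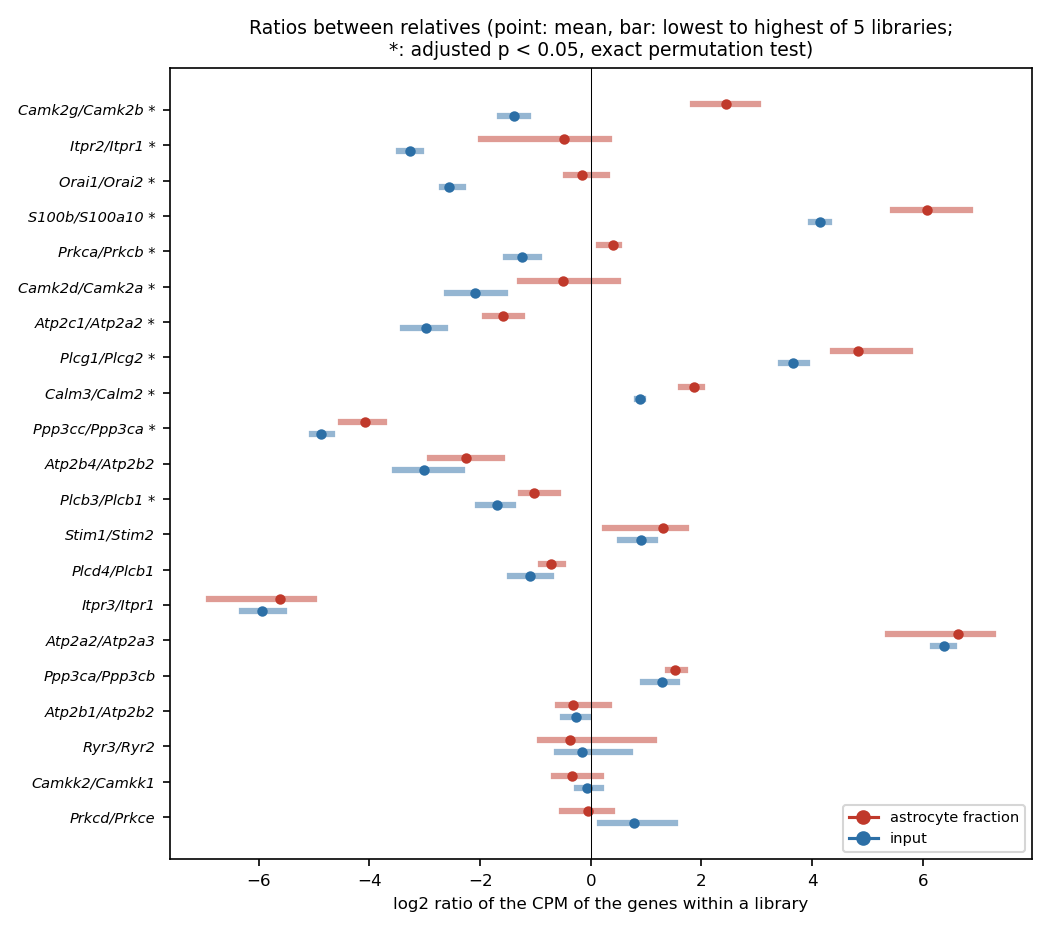
Log2 ratio of 2 relatives within a library for 21 of the 23 pairs; points are means of 5 libraries, bars run from the lowest to the highest library, red the astrocyte fraction and blue the input, and asterisks mark an adjusted p under 0.05. The ranges of the groups are apart for the 11 marked pairs, most widely for Camk2g over Camk2b, at 2.45 in the astrocyte fraction and -1.39 in the input. Pairs were set with earlier results of these data known.

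Levels also varied by title number, in the same way in both groups for many members. For 31 of the 72, the highest library of the astrocyte fraction and the highest input library carried the same number. This was number 92 for 12 members, among them Atp2a2, Atp2b1, Itpr2, Plcb4, Prkcd and Ryr3, and number 976 for 10 members, among them Atp2b3, Itpripl1, Orai2, Prkcq and Stim2. It was 982 for 5 members, 981 for 3 and 88 for 1. Atp2b3, Itpripl1, Prkcq and Stim2 were highest in number 976 together with the choroid plexus marker Ttr, while Calm3, also highest there in both groups, stayed within 30 CPM over the astrocyte fraction. Of 8 listed choroid plexus and ependyma markers 6 were measured, 1 higher and 5 not called. These markers summed to 114 to 12455 CPM in the astrocyte fraction and 25.5 to 3264 CPM in the input. The ependymal marker Tmem212 was at 0 in astrocyte fraction libraries 92 and 981. The part of choroid plexus and ependymal cells in the levels of Atp2b3, Itpripl1, Prkcq and Stim2 was not tested. Without the numbers 976 and 982, 20 members were higher, 41 lower and 11 not called.

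**Figure D5:**
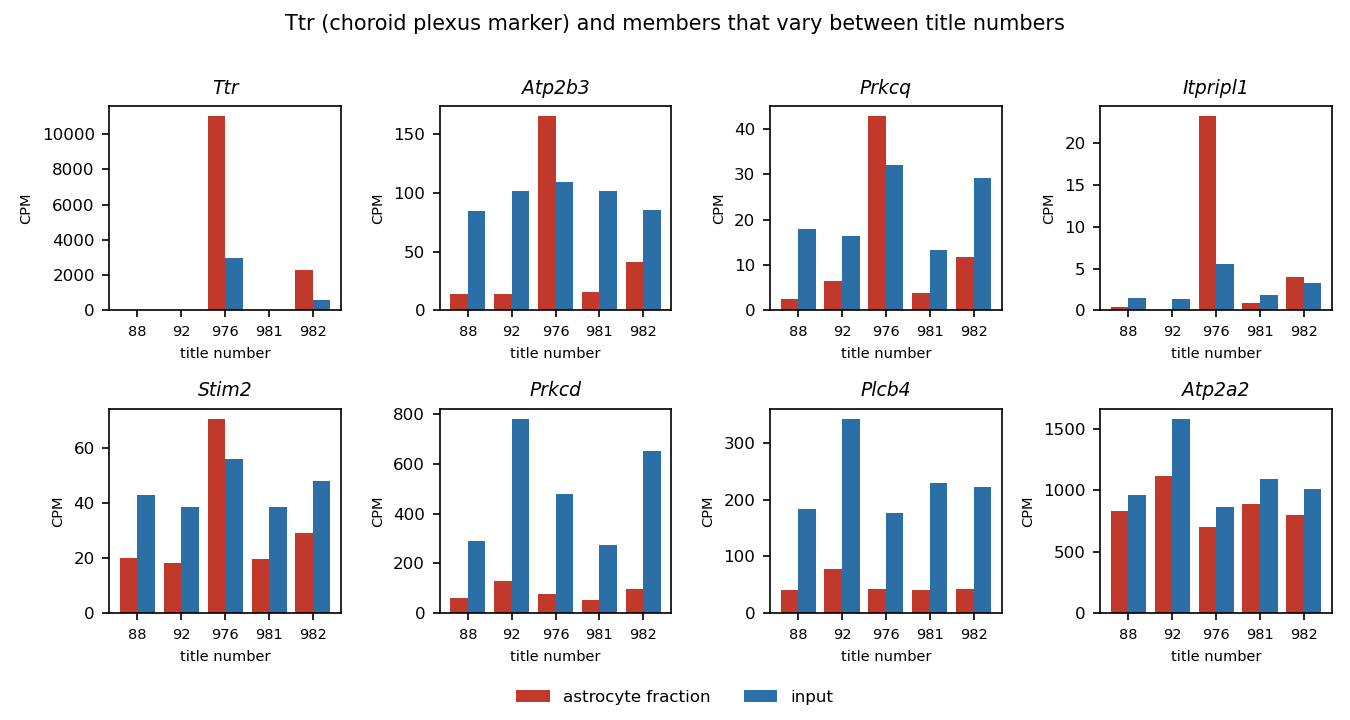
Levels in CPM of the choroid plexus marker Ttr and of 7 members by title number, linear axes, red bars the astrocyte fraction and blue bars the input, 1 library each. Ttr, Atp2b3, Prkcq, Itpripl1 and Stim2 peak at number 976 in both groups, and Prkcd, Plcb4 and Atp2a2 peak at number 92.

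Genes of the same pathway outside these families were read from the same fit, as 117 genes of the table, of which 116 were tested. Their median log2 fold change was -0.49, and 35 of them were higher, 59 lower and 22 not called. Over all genes tested the median was -0.06, with 33.1% higher and 37.5% lower, and the counts of the lists that follow are descriptions beside these shares. Upstream, the Gq protein genes Gnaq (0.35) and Gna11 (0.49) were slightly higher. Gna15, the form of blood cells, was lower, with 3, 1, 4, 4 and 4 counts in the astrocyte fraction, and passed the count limits only through the input. Of 26 inositol phosphate and diacylglycerol enzymes, 4 were higher and 16 lower. Itpkb, the kinase that turns IP3 into its tetrakisphosphate, had 1229, 1075, 947, 1175 and 1179 CPM in the astrocyte fraction, against 139, 121, 136, 130.2 and 124 CPM in the input. Its groups did not overlap, and the log2 fold change of 3.11 ± 0.08 (adjusted p = 5.08e-11) was larger than that of any of the 72 members. Plcxd2 was the most negative of that list (-2.27).

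Of 19 store, pump and entry regulators, 9 were higher and 7 lower, with a median log2 fold change of 0.05. Tmbim6, a calcium leak protein of the endoplasmic reticulum, had 2079, 2019.8, 1810.2, 1999.5 and 2025 CPM in the astrocyte fraction, against 489, 449, 492, 469 and 477 CPM in the input. The groups were far apart, with a log2 fold change of 2.06 ± 0.04 (adjusted p = 7.98e-11), while Mrvi1, a partner of IP3 receptors in smooth muscle, was the most negative (-2.60). Of 16 buffers and store proteins, 7 were higher and 6 lower (median 0.13). Rcn2, a calcium-binding protein of the endoplasmic reticulum, averaged 594 ± 90.5 CPM in the astrocyte fraction and 132 ± 12.7 CPM in the input (SD, n = 5 each) (2.17), and Calb1, the neuronal buffer calbindin, averaged 20.2 ± 8.17 CPM in the astrocyte fraction and 129 ± 46.8 CPM in the input (SD, n = 5 each) (-2.73).

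Of 12 mitochondrial calcium genes, 7 were higher and 3 lower, with a median log2 fold change of 0.32. Slc8b1, the mitochondrial sodium-calcium exchanger, had 62.5, 42.3, 58.02, 60.9 and 62.4 CPM in the astrocyte fraction, against 8.98, 8.42, 11.3, 10.1 and 9.56 CPM in the input. Its groups were apart, with a log2 fold change of 2.56 ± 0.13 (adjusted p = 1.4e-09), and Mcub, the inhibitory subunit of the uniporter, was lower (-2.36). Of 7 sodium-calcium exchangers outside the mitochondria, 5 were lower, led by Slc8a3 (-2.41), and Slc24a4 was higher (1.36).

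Of 21 calmodulin-binding and neuronal calcium sensor genes, 17 were lower, 2 were higher and the median log2 fold change was -1.83. Kcnip3, which encodes the calcium sensor DREAM, was the most positive, averaging 387 ± 46.8 CPM in the astrocyte fraction and 84.5 ± 13.1 CPM in the input (SD, n = 5 each) (2.20), and Kcnip4 the most negative (-2.26). The 12 calcineurin regulators and targets held 3 higher and 4 lower genes, with the transcription factor genes Nfatc1 (2.03) and Nfatc2 (-1.78) at the ends. The lower genes of all these lists moved with the pan-neuronal (12 of 12 lower), oligodendrocyte (10 of 10) and microglia (10 of 10) markers, and the part of these cells in their values was not tested.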

How the data were processed

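The authors deposited 1 table. It holds an expected count per gene and library, which the authors estimated and left unscaled, per the file headers. It also holds a normalized log2 value, which the authors scaled for depth and centred on the input, per the file headers and the values. Between 4.95% and 31.1% of a library's expected counts lie within 0.001 of a whole number. The genome build mm10, CASAVA 1.8 and DESeq are named in the submitters' processing notes without a role. Aligner, counter and strand setting are not given in the sources used, which leaves counts of overlapping genes uncertain. In 1 or both groups, each gene has 5 or more counts in every library, so low genes had been removed before deposit. Plcb2, Plcg2, Ryr1, Itpripl1 and Atp2c2 were among the members that reached this limit in the input only. Libraries were made with the NEB Ultra II kit from polyA RNA, per the labels' protocols.

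The expected counts, rounded, were tested over the whole table with edgeR 4.0.16 in R 4.3.3 (TMM, filterByExpr at a minimum count of 10, robust quasi-likelihood test, prior count 2). The filter kept 17672 genes and removed 792, none of them members, and Benjamini-Hochberg adjustment ran over all genes tested. A log2 fold change is the edgeR fitted value, astrocyte fraction minus input. The SE given with it is that of the difference of mean log2 CPM over 5 libraries each. These 2 estimates can differ where libraries vary widely, as for Atp2b3. The common biological coefficient of variation was 0.229. A count of 0 allows 3 counts, which is 0.880 CPM in astrocyte fraction library 92, 0.120 to 0.136 CPM in its other 4 libraries and 0.0912 to 0.125 CPM in the input, covering counting error only. Levels per kilobase divide by the merged length of all exons of a gene in GENCODE M21, not by the length of the transcripts expressed. GENCODE M21 holds all 72 members, 69 with the coordinates of the table. Shares and ranks depend on these lengths, such as 22493 bases for Camk2d and 6401 for Camk2g. Isoform ratios use log2 of CPM + 0.5 and an exact permutation test.

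Members and lists were chosen with earlier results of these data known. Values of every library are given for the member of each role with the highest level per kilobase and for those with the largest called change in each direction with a mean of at least 1 CPM, and in addition, chosen after their values were seen, for S100a1, Atp2b3, Stim2, Prkcq, Itpripl1 and Ttr. Gnaq was also named after its value was seen. Results of 2 members are not reported here; they remain in counts over all members and ratios. Within a group, log2 CPM correlated at 0.921 to 0.990, with chi-square values per degree of freedom of at least 11.6, so no library was a repeat of another. Libraries with the same title number tended to vary together. After removal of group means, their correlations were 0.386, 0.198, 0.493, 0.322 and 0.189 for 88, 92, 976, 981 and 982, against a mean of -0.079 for other pairs. The best match of astrocyte fraction library 982 was input library 976. That of the other astrocyte fraction libraries was the input library of the same number. The main fit did not use the number. The edgeR and permutation steps were tested on simulated data. Alternatives were DESeq2 1.42.0, other scalings and filters, limma 3.58.1 on the authors' log2 values, the number as a block, and leaving out libraries.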

Additional observations from a re-analysis of the deposited data

Results flagged for a closer look

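In 144 groups of 5 libraries, 1 for each member and group, Dixon's outlier rule was applied to log2 CPM. It sets the gap to the nearest library over the range against a limit of 0.71. A library stood apart from the other 4 in 4 cases, a lower rate than the about 1 in 20 groups that chance alone gives. On this log2 scale astrocyte fraction library 976 was not flagged for Atp2b3, Itpripl1, Stim2 or Prkcq, although it was the highest library there. Plcb4 was at 78.4 CPM in astrocyte fraction library 92, against 40.6 to 43.1 CPM elsewhere in the astrocyte fraction. Plcd3 was at 4.11 CPM, from 14 counts, in the same library, against 8.51 to 11.01 CPM in the others. Camk2n1 was at 975 CPM in input library 982, against 853 to 876 CPM in the other input libraries. Plcd1 was at 11.7 CPM in input library 976, against 8.46 to 9.29 CPM in the others.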

How the results depend on the processing

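The count of 20 higher members was the same under every alternative run except the filter at a mean of 5 CPM, which left 65 members and 19 higher. The count of lower members ran from 37 to 46, and its high end is total count scaling, which gave 6 members not called and a median of -0.97. That scaling moved the median of all genes from -0.06 to -0.34 and the share of higher genes among all called genes from 46.9% to 34.0%, turned Plcg1 to -0.28, and called Atp2a2, Atp2a3, Camkmt, Plcd3 and Prkca lower. The cause was not tested. Leaving out 1 library or 1 number gave 37 to 43 lower members. With the title number as a replicate block, 20 members were higher, 42 lower and 10 not called; it changed the calls of Atp2a2 and Stim2 and of no other member. With DESeq2's own test, 1 member had no adjusted p. For the other pathway genes the median of -0.49 became -0.78 with total count scaling, -0.56 with DESeq2's test, -0.58 with limma on the authors' log2 values and -0.43 with the 5 CPM filter, where 14 were not called; leaving out libraries gave -0.56 to -0.43. Of the 23 ratios, 0 were called with the replicate block, whose smallest adjusted p was 0.0898, 0 without number 88, 981 or 982, 14 without 976 and 15 without 92, and 4 against 4 libraries allow no p below 0.0286. Depth limits astrocyte fraction library 92 most: 7 members had under 10 counts in a library and 1 had none.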

Other observations

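The members were also split by 4 Gene Ontology terms of the deposited table, which played no part in choosing them and which overlap in their genes. The 7 members with the term for the postsynaptic density had 1 higher, 6 lower and a median log2 fold change of -2.27, against 19 higher, 34 lower and -0.67 for the 65 others. The 5 with the term for the synapse were all lower (median -1.63), against 20 higher and 35 lower of the other 67 (-0.67). Terms were matched by their own identifier only, without narrower terms. The 1 higher member with the postsynaptic density term therefore counts among these 67. The 8 with the term for the endoplasmic reticulum membrane had 1 higher, 4 lower and 3 not called (median -0.50), against 19 higher and 36 lower of the other 64 (-0.76). The 38 with the term for the plasma membrane had 8 higher and 25 lower (median -0.91), against 12 higher and 15 lower of the other 34 (-0.32). These are descriptions with no test, and of all genes tested 33.1% were higher and 37.5% lower.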
